A study of Caenorhabditis elegans with 2 samples.

Results

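The potassium channel genes of Caenorhabditis elegans were examined for binding of the transcription factor ZAG-1. They were taken from the WBcel235 annotation by symbol, as the protein-coding twk, kqt, kvs, irk and slo genes plus sup-9, unc-103, egl-36, egl-2, egl-23, exp-2, shk-1, shl-1, unc-58, shw-1 and shw-3. This gave 68 of 19985 protein-coding genes, in 6 families: 47 K2P genes, 11 Shaker-related genes, 3 KCNQ genes, 3 inward rectifier genes, 2 EAG-related genes and 2 Slo genes. No measured value entered the choice by symbol. Chromatin immunoprecipitation and sequencing had been done on whole L2 larvae, males and females mixed, of strain OP83, which carries the mutation unc-119(ed3) on chromosome III and the insertion wgIs83 for eGFP-tagged ZAG-1. The labels give 2 biological replicates of this single group and no second genotype, stage or treatment. All larvae thus carried the tagged insertion and the unc-119 mutation, and no value here separates the tagged protein from untagged ZAG-1. In whole larvae, weak binding in many cells and strong binding in few cells cannot be told apart.

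Potassium channels let potassium leave the cell and so hold or restore a negative membrane potential. K2P channels, whose subunits carry a pair of pore domains, pass a steady leak current, whereas Shaker-related, KCNQ and EAG-related channels open on depolarization, Slo channels join voltage with internal ions as openers, and inward rectifiers pass current best near the resting potential. ZAG-1 is the worm member of the ZEB family of zinc finger homeodomain proteins, known for roles in neuron differentiation, and ZEB proteins bind E-boxes of the form CACCTG.

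The deposited lists hold 24146 peaks in replicate 1, 29374 in replicate 2 and 16325 with both replicates pooled, of which 1803 passed a threshold on the irreproducible discovery rate (IDR), a measure of rank agreement between replicates. Each peak has a score, which is the authors' own and was used only within a list. A summit, the highest point of a peak, was given to the protein-coding gene whose 5′ end lay nearest, if within 5 kb. Read depth is unknown, and the intervals below are 95% Clopper-Pearson intervals that cover counting of genes or summits only.

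ZAG-1 peaks that passed the IDR threshold lay at 4 potassium channel genes: slo-1, twk-2, twk-49 and twk-5. That was 4 of 68, or 5.88% (1.63 to 14.4), beside 6.99% of all protein-coding genes, a share near the background. When every transcript 5′ end was used in place of 1 end per gene, unc-103 joined them, giving 5 of 68, or 7.35% (2.43 to 16.3), beside 7.26%. The sequences around these 5 summits are shown because they are the only IDR-thresholded sites assigned to a channel gene by either kind of 5′ end. They are 201 bases each from the + strand of ce11 (RefSeq genome), centred on the summit, with GAGAGA or its complement TCTCTC in capitals.
slo-1, chrV:18490533-18490733: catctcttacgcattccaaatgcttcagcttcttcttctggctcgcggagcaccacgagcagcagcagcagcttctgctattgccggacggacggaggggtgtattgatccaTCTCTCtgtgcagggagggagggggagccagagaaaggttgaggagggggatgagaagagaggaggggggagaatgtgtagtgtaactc
unc-103, chrIII:4132227-4132427: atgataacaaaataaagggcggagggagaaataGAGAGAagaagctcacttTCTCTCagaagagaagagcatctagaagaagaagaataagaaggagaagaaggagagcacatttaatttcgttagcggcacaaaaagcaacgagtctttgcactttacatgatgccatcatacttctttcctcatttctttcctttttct
twk-2, chrII:4456211-4456411: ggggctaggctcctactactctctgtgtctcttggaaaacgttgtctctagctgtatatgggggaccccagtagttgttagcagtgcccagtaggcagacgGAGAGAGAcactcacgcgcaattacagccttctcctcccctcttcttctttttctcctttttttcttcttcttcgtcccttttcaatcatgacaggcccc
twk-49, chrII:6498801-6499001: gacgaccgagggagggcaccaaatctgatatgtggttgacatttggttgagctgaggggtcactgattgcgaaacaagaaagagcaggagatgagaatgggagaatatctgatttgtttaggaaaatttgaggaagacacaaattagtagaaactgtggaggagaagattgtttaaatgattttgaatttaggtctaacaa
twk-5, chrII:11484693-11484893: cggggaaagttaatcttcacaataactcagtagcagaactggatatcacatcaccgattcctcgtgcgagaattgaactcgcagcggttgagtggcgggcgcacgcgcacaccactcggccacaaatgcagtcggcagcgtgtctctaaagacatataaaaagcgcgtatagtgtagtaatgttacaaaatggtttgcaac
GAGAGA occurred in the slo-1, unc-103 and twk-2 windows and in neither of the others. Among all IDR-thresholded summits 49.4% had it within 100 bp, and among all pooled-list summits 22.8%. None of the 5 windows held CACCTG or CAGGTG, which lay within 100 bp of only 1.89% of all IDR-thresholded summits.

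The strongest peak of the set lay upstream of slo-1, which encodes the large-conductance, calcium-activated BK channel that limits transmitter release. Its summit was intergenic, 1628 bp upstream of the slo-1 5′ end, with a score of 55.2 and rank 600 of 16325 in the pooled list. The overlapping peak ranked 523 in replicate 1 and 705 in replicate 2. It was thus among the higher-ranked peaks in both libraries. Weaker summits lay 175 bp upstream (score 14.2) and 2961 bp downstream (score 10.2), each overlapped by a replicate 2 peak and by no replicate 1 peak.

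The unc-103 peak, at the gene of an ERG-type channel that acts in egg laying and male mating, was the next strongest. It had a score of 45.3 and rank 877, with replicate ranks of 1043 and 795. Its summit was in an unc-103 intron, 16942 bp inside the gene from the outermost 5′ end but 1050 bp from the 5′ end of a shorter transcript. The gene is 31.9 kb long and has 10 annotated 5′ ends over 23.3 kb, so the choice of 5′ end decides whether this peak counts. With 1 end per gene, unc-103 still held 6 pooled-list summits, the most of any channel gene, and with all transcript ends 13.

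The remaining IDR-thresholded peaks were at K2P genes. At twk-2 the summit was intergenic, 3160 bp upstream, with a score of 39.8, rank 1108, and replicate ranks of 1782 and 574. A further twk-2 summit, 391 bp upstream in the promoter, scored 26.9, below the lowest IDR-thresholded score of 29.6. At twk-49 the summit was in an intron 266 bp downstream, with a score of 31.9 and replicate ranks of 1906 and 2051. At twk-5 it was in an intron 507 bp downstream, with a score of 29.9 and replicate ranks of 2050 and 2153, and lay 41 bp from the snoRNA gene B0334.12. The twk-49 and twk-5 peaks were therefore near the lower edge of the IDR list in both libraries. Just outside that edge were a twk-13 peak, with a score of 28.7, which counts only with transcript ends, and a twk-21 peak with a score of 27.4.

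**Figure D1:**
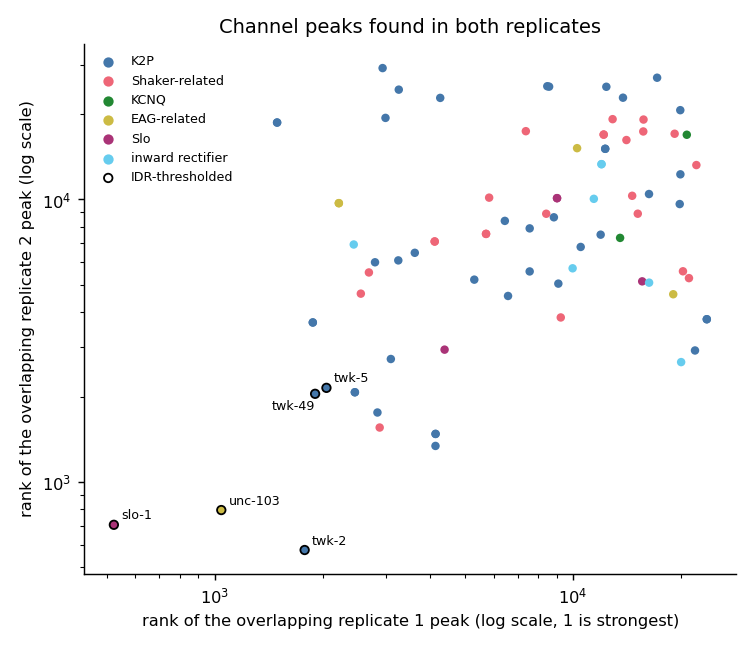
Rank of the overlapping replicate 1 peak (x axis) against that of the overlapping replicate 2 peak (y axis), both log scales where 1 is strongest, for channel peaks of the pooled list found in both replicates, including those assigned by a transcript 5′ end only; colours are families and black rims are IDR-thresholded peaks. The slo-1 peak, at 523 and 705, and the rimmed unc-103, twk-2, twk-49 and twk-5 peaks sit at the lower left.

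In the plot of replicate ranks, most channel peaks lay further down both lists than the IDR-thresholded ones. By pooled-list score, channel summits were close to other summits. The median score of the 92 channel summits assigned by the gene 5′ end was 12.7, beside 12.5 for all assigned summits. Of the 92, 53.3% (42.6 to 63.7) were in the higher-scoring 50% of the pooled list. The 1803 strongest peaks of each replicate were also assigned, with a single 5′ end per gene. Replicate 1 placed some at 3 of 68 channel genes (slo-1, twk-2 and twk-39), beside 6.88% of all genes. Replicate 2 placed some at 5 (shw-1, slo-1, twk-2, twk-29 and twk-49), beside 6.80%. Here the twk-49 peak ranked 1479 in replicate 2 and was not the one at its IDR-thresholded summit, which ranked 2051. Both replicates had such peaks at slo-1 and twk-2, or 2 of 68, beside 4.71% of all genes. The unc-103 peak, assigned by a transcript 5′ end, was also within rank 1803 in both. The replicates were far apart at the strongest twk-39 peak, which ranked 1493 in replicate 1 and 18724 in replicate 2.

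In the longer pooled list, which also holds weak candidates, 42 of 68 channel genes had a summit, or 61.8% (49.2 to 73.3), beside 41.6% of all genes. With transcript ends the count was 46 (67.6%), beside 41.6% again. Taken singly, replicate 1 had summits at 51 channel genes (75.0%), beside 55.1% of all genes, and replicate 2 at 59 (86.8%), beside 62.5%. Both replicates had a summit at 47 (69.1%, 56.7 to 79.8), beside 42.4%. In each of these lists the channel share was above that of all genes.

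More bases were assigned to a typical channel gene than to a typical gene. The median territory, meaning the bases within 5 kb whose nearest gene 5′ end is that gene's, was 6.47 kb for channel genes and 3.86 kb for all genes. Per 100 kb of territory, channel genes had 21.6 pooled-list summits and all genes 16.0, a ratio of 1.34. The ratio was 1.25 in replicate 1 and 1.26 in replicate 2. For IDR-thresholded summits it went the other way, with 0.937 per 100 kb at channel genes and 1.84 at all genes, although the first value rests on 4 summits. Of the 92 channel summits 4.35% were IDR-thresholded, against 11.0% of all pooled-list summits.

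The families were unequal in the pooled list. Of the K2P genes, 23 of 47 had a summit (48.9%, 34.1 to 63.9), and of the other families together 19 of 21 (90.5%, 69.6 to 98.8). These intervals did not overlap. The share of all genes, 41.6%, lay inside the K2P interval and below that of the other families. All 11 Shaker-related genes, both EAG-related genes, both Slo genes and all 3 inward rectifier genes had a summit, and 1 of 3 KCNQ genes did. In the replicate lists the gap was smaller: 68.1% (52.9 to 80.9) of K2P genes against 90.5% (69.6 to 98.8) of the others in replicate 1, and 83.0% (69.2 to 92.4) against 95.2% (76.2 to 99.9) in replicate 2, with intervals that overlapped. The shares of all genes in these lists were 55.1% in replicate 1 and 62.5% in replicate 2. Families of 2 or 3 genes have intervals too wide to be ranked.

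**Figure D2:**
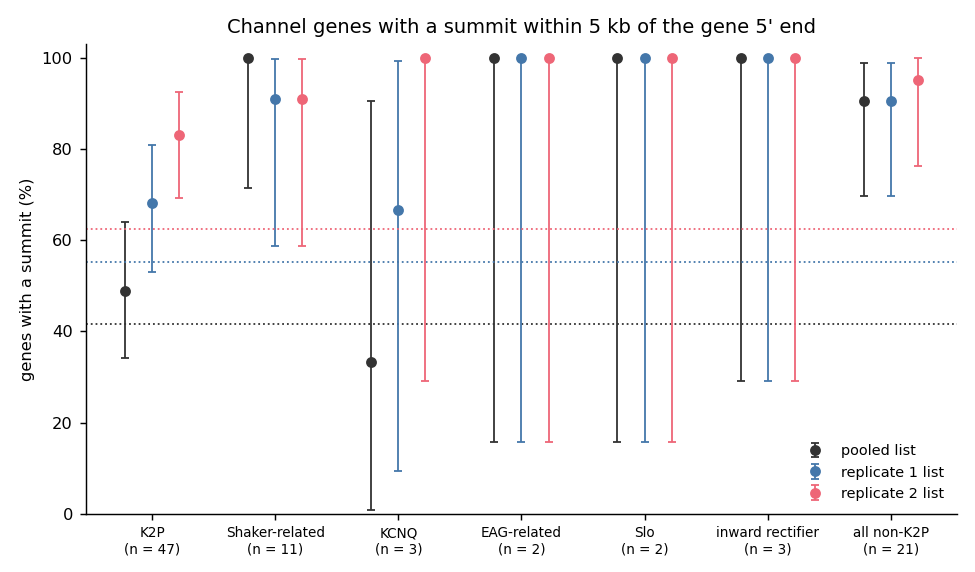
Percentage of genes in each family with a summit within 5 kb of the gene 5′ end in the pooled, replicate 1 and replicate 2 lists; bars are 95% Clopper-Pearson intervals and dotted lines the share of all protein-coding genes in the list of the same colour. In the pooled list the K2P interval (34.1 to 63.9) lies below that of all non-K2P genes (69.6 to 98.8).

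The families also differed in how many bases were assigned to them. The median territory was 5.7 kb for K2P genes and 7.1 kb for the other families, and median gene length was 4.63 and 12.1 kb. Per 100 kb, K2P genes had 16.7 pooled-list summits, 1.04 times the value for all genes, and the other families 29.7, or 1.85 times. The other families were also above K2P genes in each replicate, at 1.45 against 1.13 in replicate 1 and 1.49 against 1.13 in replicate 2. With transcript ends the ratios were 1.35 for K2P genes and 1.70 for the others, a smaller gap than with 1 end per gene. In the higher-scoring 50% of the pooled list they were 1.30 and 1.66. The order held in the pooled and replicate lists and in both settings, but its size varied, and no test was made because genes are not replicates. In the IDR-thresholded list it was the other way, with 1.12 summits per 100 kb at K2P genes and 0.633 at the others, from 3 summits and 1.

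**Figure D3:**
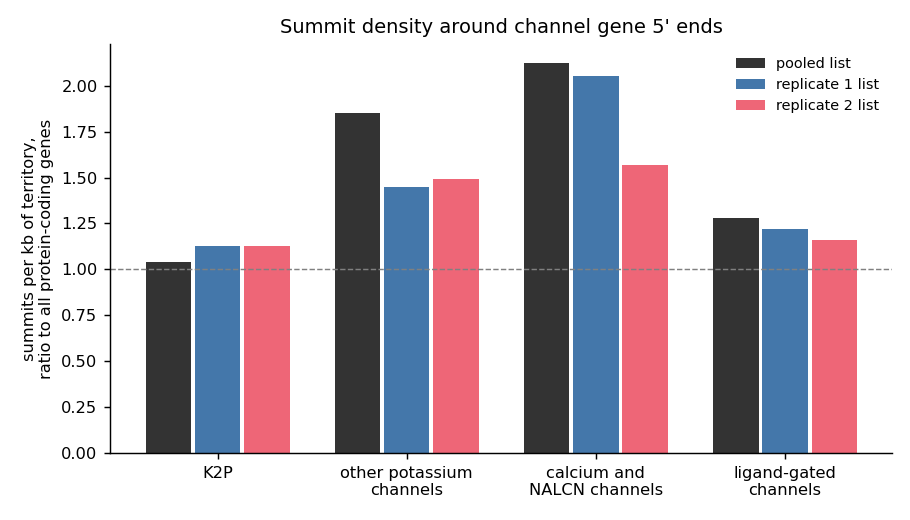
Summits per kb of territory around gene 5′ ends, as a ratio to all protein-coding genes (dashed line at 1), for K2P genes, the other potassium channel families, calcium and NALCN channels, and ligand-gated channels, in the pooled, replicate 1 and replicate 2 lists. K2P genes are at 1.04 to 1.13 and the other potassium channels at 1.45 to 1.85.

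Among K2P genes with a known mutant phenotype, pooled-list summits were uneven. unc-58, whose mutants are uncoordinated, had summits 522 bp (score 21.9) and 4234 bp (score 15.2) downstream, and 11 summits in all by transcript ends over its 28.6 kb. The stronger one had replicate ranks of 3101 and 2724 and lay within 200 bp of a tRNA gene. egl-23, whose gain-of-function mutants are defective in egg laying, had 1 summit, 3570 bp downstream with a score of 9.45, near the bottom of the list, and 3 by transcript ends with a best score of 21.7. sup-9, a muscle channel that works with the SUP-10 and UNC-93 proteins, and twk-18, whose gain-of-function mutants are paralysed, had no pooled-list summit. In the replicate lists sup-9 had a summit in each (ranks 11886 and 7159) and twk-18 in replicate 1 only (rank 6359). The best replicate peaks assigned to egl-23 by the gene 5′ end ranked 17452 and 9572. Only the replicate 2 peak overlapped its pooled-list peak. sup-9 has the smallest territory of the K2P genes, 1.66 kb.

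Of the K2P genes without an IDR peak, twk-21 had the highest-scoring summit (27.4), 1608 bp upstream, with replicate ranks of 1878 and 3669. Next were twk-29 (score 26.2, in an intron 2295 bp downstream), twk-39 (25.0, 970 bp upstream) and twk-7 (23.8, 1217 bp upstream). With 1 end per gene, the K2P genes twk-1, twk-14, twk-28 and twk-8 had no summit in any of the 4 lists. With transcript ends, twk-1 had 1 summit in the pooled list (score 13.4) and 2 in replicate 1, and twk-14 had 2 in replicate 2. In all, 24 K2P genes lacked a pooled-list summit, and their median territory (5.49 kb) was close to that of the 23 with a summit (5.77 kb). Among all genes the corresponding medians were 3.15 and 5.15 kb.

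**Figure D4:**
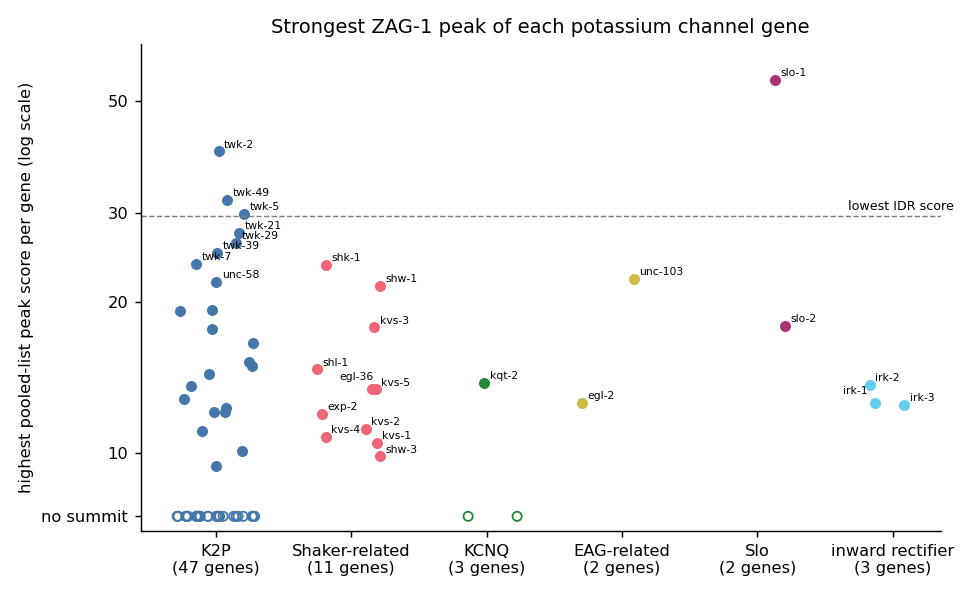
Highest pooled-list peak score of each of the 68 potassium channel genes (y axis, log scale) by family, with open circles for genes without a summit and a dashed line at the lowest IDR-thresholded score, 29.6. slo-1 (55.2), twk-2 (39.8), twk-49 (31.9) and twk-5 (29.9) are above the line, and 24 K2P and 2 KCNQ genes have no summit.

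The Shaker-related genes all had a summit, none of them IDR-thresholded (0 of 11, with an upper bound of 28.5%). shk-1, the Shaker channel of neurons and muscle, had the highest score of the family, 23.7, in an intron 2415 bp downstream of the gene 5′ end and 104 bp upstream of a shorter transcript's 5′ end. It ranked 2557 in replicate 1 and 4641 in replicate 2. shw-1, a Shaw channel, had 5 summits, the strongest (score 21.5) 1565 bp downstream with replicate ranks of 2886 and 1558. kvs-3 had a promoter summit 137 bp upstream (score 17.8), which lay within 200 bp of a tRNA gene. shl-1, the Shal channel that carries fast A-type current, had 4 summits, the strongest 1071 bp upstream (score 14.7).

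Weaker peaks marked the remaining Shaker-related genes known from mutants. egl-36, a Shaw channel of egg-laying muscle, had 3 upstream summits at 1533, 2497 and 3315 bp, with a best score of 13.4. exp-2, the channel that ends the pharyngeal muscle action potential, had summits 1860 bp upstream (score 12.0) and 3871 bp downstream (score 11.6), and neither overlapped a replicate 1 peak. kvs-1, a channel of sensory neurons, had 1 summit 506 bp upstream (score 10.5), with an overlapping peak in replicate 1 and none in replicate 2. kvs-4 had a summit in the pooled list (score 10.8) and in neither replicate list.

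In the smaller families, slo-2, a Slo channel that also responds to other internal ions, had 4 summits, the strongest in the promoter 227 bp upstream (score 17.9, replicate ranks 4380 and 2940). egl-2, the EAG channel, had 1 intronic summit 1517 bp downstream (score 12.6, replicate ranks 10263 and 15195). Of the KCNQ genes, kqt-2 had summits 358 bp (score 13.8) and 1979 bp (score 9.99) upstream, whereas kqt-1 and kqt-3 had none in the pooled list and kqt-3 gained 1 (score 12.8) with transcript ends. irk-1, the inward rectifier of the egg-laying motor neurons, had 3 summits in introns, with a best score of 12.6. irk-2 and irk-3 had best scores of 13.7 and 12.5. With transcript ends the best scores were 19.9 for irk-1 and 21.3 for irk-3.

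**Figure D5:**
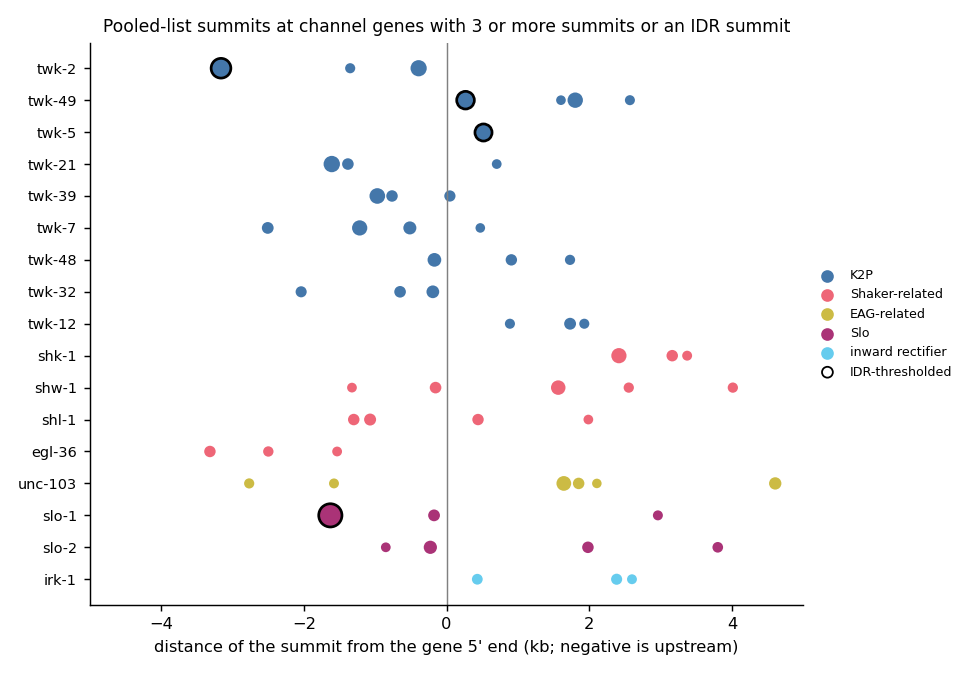
Distance of each pooled-list summit from the gene 5′ end (x axis, kb, negative is upstream) for the channel genes with 3 or more summits or an IDR-thresholded summit; the area of a point grows with its score, and black rims mark IDR-thresholded summits. Points spread over both sides of the 5′ end, and unc-103 has 6.

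Channel genes with any pooled-list summit often had several, as the plot of positions shows. The mean was 2.19, and 38.1% had 3 or more, against 15.5% of all genes with a summit. Some summits came from overlapping peaks: the 92 formed 83 separate regions. Promoters were taken as 500 bp before to 100 bp after the 5′ end of a protein-coding gene. They held 12 summits, or 13.0% (6.93 to 21.7), beside 18.9% of all pooled-list summits and 22.4% of all assigned ones. In replicate 2 alone, at the same list length, the shares of channel and all summits were 17.4% and 17.0%. Introns held 44 (47.8%, 37.3 to 58.5), beside 31.4% of all pooled-list summits and 27.4% of all assigned ones. Of the 44, 41 were in introns of the channel gene itself. K2P genes and the other families were alike in promoter share, at 13.3% (5.05 to 26.8) and 12.8% (4.83 to 25.7). The median distance to the 5′ end was 1620 bp, against 1180 bp for all assigned summits. Long genes have more intron within reach, and the part of gene length in these shares was not tested.

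CACCTG or its complement CAGGTG, the E-box of ZEB proteins, lay within 100 bp of 6 of 92 channel summits, or 6.52% (2.43 to 13.7), beside 4.45% of all pooled-list summits and 1.89% of IDR-thresholded ones. The shorter CACCT, which is contained in CACCTG, lay within 100 bp of 21 (22.8%), beside 17.5%, and GAGAGA of 20 (21.7%), beside 22.8%. All 3 shares were near their background. In channel promoters, 250 bp upstream to 50 bp downstream of the gene 5′ end, CACCTG occurred in 5.88%, against 8.48% of all promoters, GAGAGA in 17.6%, against 21.8%, and CACCT in 25.0%, against 28.5%. Both strands were searched for each motif. The 6 E-box sites are shown as the places where the ZEB-type site meets a channel peak assigned by the gene 5′ end. They are 26 bases from the + strand of ce11 (RefSeq genome), with the E-box in capitals.
twk-21, chrX:16298402-16298427: cgcccgagatCACCTGtctttttttc
twk-21, chrX:16300650-16300675: cgcccgagatCACCTGtcttttttgg
twk-32, chrV:13796001-13796026: aagtccttctCACCTGtaataatttc
twk-48, chrIII:9861572-9861597: caaaaatattCAGGTGagaaaataga
irk-1, chrX:6775654-6775679: attgattcgaCAGGTGtttcttttct
irk-3, chrX:14371061-14371086: tcatttacgaCACCTGggccctttga
The 2 twk-21 sites matched at 24 of 26 positions, and each E-box lay 0 bp from an annotated tRNA gene. That distance shows overlap with the tRNA gene, not that the E-box lay wholly inside it. The twk-48 E-box lay 20 bp from a tRNA gene. The remaining summits with an E-box lay in an untranslated region (twk-32), an intron (irk-1) and intergenic sequence (irk-3). Of these 92 summits, none of the 25 Shaker-related, 2 KCNQ, 7 EAG-related and 7 Slo summits had an E-box within 100 bp. With an E-box at 4.45% of all pooled-list summits, counts this small do not set these families apart.

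tRNA genes were close to several channel peaks. A tRNA gene lay within 200 bp of 8 of 92 channel summits, or 8.70% (3.83 to 16.4), beside 1.79% of all pooled-list summits and 3.44% of IDR-thresholded ones. They belonged to 6 channel genes, twk-21 (3 summits), unc-58, twk-7, twk-48, kvs-3 and egl-36. This count was made after the peaks had been seen. Without tRNA-adjacent summits, the density ratio to all genes was 0.922 for K2P genes and 1.81 for the other families.

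Among other channel groups, peaks were densest at the voltage-gated calcium and NALCN channel genes, NALCN being a sodium leak channel. IDR-thresholded summits lay at 5 of 11 (45.5%, 16.7 to 76.6), beside 6.99% of all genes. Pooled-list summits lay at all 11, beside 41.6% of all genes, at 2.12 times the density of all genes. The strongest were at unc-79 (score 78.5, 2709 bp upstream) and unc-80 (score 74.7, 119 bp upstream), which encode NALCN partner proteins. The interval for potassium channels (1.63 to 14.4) lay below that of these genes and held the share of all genes. The 2 lists are unlike, because this one includes partner proteins and the potassium list holds channel genes only. Ligand-gated channel genes were close to the potassium channels, with IDR-thresholded summits at 5 of 107 (4.67%, 1.53 to 10.6), led by lgc-21 (72.0) and unc-63 (61.8), a nicotinic receptor subunit gene, and pooled-list summits at 63 (58.9%).

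Potassium channel genes outside the symbol rule and regulators of the channels were counted too. Of the 4 small-conductance SK channel genes, none had an IDR-thresholded summit. A pooled-list summit lay at 3 (75.0%, 19.4 to 99.4), beside 41.6% of all genes, with best scores of 16.4 at kcnl-4 and 11.9 at kcnl-1. Of 14 accessory subunits and regulators, 10 had a pooled-list summit (71.4%, 41.9 to 91.6), beside 41.6% of all genes. An IDR-thresholded summit lay at 3 (21.4%, 4.66 to 50.8), an interval that holds the share of all genes, 6.99%. The 3 were dyb-1 (55.7), ctn-1 (39.8) and stn-1 (35.3), the genes of dystrobrevin, alpha-catulin and syntrophin, which help to place SLO-1 in muscle. The intervals of these small lists overlap that of the potassium channel genes.

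A few summits lay near the 5 kb limit. Just inside were summits of shw-3 (4947 bp) and unc-103 (4605 bp), and just outside were summits near twk-23 (5108 bp) and kvs-3 (5196 bp). A further 45 pooled-list summits, 4 of them IDR-thresholded, lay within 5 kb of a channel 5′ end but nearer to another gene's. By chromosome, pooled-list summits lay at 13 of 19 channel genes on X (68.4%, beside 55.0% of X genes) and 11 of 20 on V (55.0%, beside 32.7%).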

How the data were processed

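ZAG-1 ChIP-seq peak lists of 2 biological replicates (1 group) were used. Per the file list they deposited, the authors called each replicate against a control alignment, made a pooled list from both, and derived the IDR-thresholded list from these. The sources used here name neither the caller nor its thresholds. The authors' score per peak, the deposited −log10 q-value and the summit offset are as deposited in ce11; scores were compared only within a list.

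Summits were assigned to the nearest protein-coding gene 5′ end within 5 kb (Ensembl release 115, WBcel235), with replicate peaks matched by at least 1 bp of overlap. Sequences were read from the RefSeq genome of the same assembly. Shares have Clopper-Pearson intervals, and no test was made: there is 1 group, and genes are not replicates. Without read counts, depth is unknown. Alternatives changed the 5′ ends, distance, score, promoter, motif window and replicate.

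The members and gene lists were chosen with earlier results of these data known. Named genes were those with an IDR-thresholded summit, the 4 highest-scoring members of each family, the members known from mutants, and the 2 highest-scoring members of each other list; others were named after their values were seen, as were the density and tRNA counts chosen. Of the calcium and NALCN list, nca-1 was not found by that name. The assignment was tested on simulated summits. For motifs only the complement of CACCTG was checked, and the motif counts were not tested on simulated data. Python 3.11.15, numpy 2.4.6, pandas 2.3.3, scipy 1.17.1 and matplotlib 3.10.9 were used.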

Additional observations from a re-analysis of the deposited data

How the results depend on the processing

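Against all genes or all summits, several comparisons changed side. The channel share with an IDR-thresholded summit was below that of all genes as reported (4 of 68, beside 6.99%), and above it with transcript 5′ ends (5 of 68, beside 7.26%) and in replicate 2 alone (5 of 68, beside 6.80%). A summit in both replicates was more common at channel genes (47 of 68, beside 42.4%), but among the 1803 highest-scoring peaks of each replicate it was found at 2 of 68, beside 4.71%. The promoter share was below that of all summits (13.0%, beside 18.9%), yet 17.4% beside 17.0% in replicate 2 alone; in replicate 1 alone it was 11.1% beside 18.6%. The E-box share was 6.52% beside 4.45%, but 1.09% beside 2.18% within 50 bp of the summit, 13.0% beside 8.78% within 200 bp, 4.65% beside 4.47% in replicate 2 alone and 6.17% beside 4.28% in replicate 1 alone. A limit of 1 kb gave 2 of 68 channel genes with an IDR-thresholded summit, beside 4.28% of all genes. It gave 26 with a summit in both replicates, beside 21.1%. A pooled-list summit within 1 kb lay at 26 (15 of 47 K2P genes and 11 of 21 others), beside 26.1%. In the higher-scoring 50% of each list, 1 of 68 channel genes had an IDR-thresholded summit, beside 3.61% of all genes. There 22.4% of channel summits lay in promoters, beside 24.3%. A promoter of 1000 bp upstream to 200 bp downstream gave 21.7%, beside 28.5%. The cause of these changes was not tested. Either replicate alone, at the length of the IDR-thresholded list, gave 3 to 5 of 68 channel genes, beside 6.80% to 6.88% of all genes. At the pooled length each gave 45 of 68, beside 42.2% of all genes in replicate 1 and 43.1% in replicate 2. The families were then closer than in the pooled list (23 of 47 K2P genes and 19 of 21 others). Replicate 1 gave 28 K2P genes and 17 others, and replicate 2 gave 29 and 16. No paired analysis was possible because there is 1 group. Peak lists give no depth, so a gene without a peak is not shown to be unbound.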
